A study of Mus musculus with 48 samples.

Results

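The spleen erythroid cells described here are the cells of spleen samples to which the authors' deposited annotation gives the label Erythrocytes. They number 261 of 3320 annotated spleen cells, and 297 of the 12096 annotated cells of the series carry that label, with 31 in muscle and 5 in joint. The RNA of single cells was read by Seq-Well, which pairs cells with barcoded beads in microwells and counts each captured mRNA molecule by a unique molecular identifier (UMI). All mice were male DBA1/J, a strain that develops arthritis after collagen injection, and the study's methods give an age of 8 to 12 weeks. The 6 mice with collagen-induced arthritis (CIA mice) received 100 µg bovine collagen II in complete Freund's adjuvant, and a booster of the same dose in incomplete adjuvant on day 20. The 4 healthy mice were given phosphate-buffered saline and had an arthritis score of 0, where the score sums the limbs. Mice S1, S2 and S3 had a score of 8, S5 a score of 4 to 5, S6 of 3 to 4 and S8 of 2 to 3. Sample titles carry the mark 2CIA for H3 and for all mice with score 8, and the mark CIA for H4, H6, H7 and the mice with lower scores, so that score and experiment cannot be told apart. Every spleen was frozen, thawed, passed through a strainer and treated with red blood cell lysis buffer, which limits these cells as a picture of red cells in the organ.

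Red cells arise from progenitors that switch on the globin genes, take up iron through the transferrin receptor and build haem, the iron-holding ring that haemoglobin needs, while they divide a limited number of times. In mice the spleen is a regular site of this process and enlarges its output in anaemia and inflammation. Early stages are marked by *Kit* and *Gata2*, committed stages by *Klf1*, *Car1* and *Car2*, and late stages by membrane genes such as *Slc4a1*, and mature red cells have lost their nucleus and most of their mRNA.

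The start regions of the globin genes that make up most of the globin counts, and of the haem gene *Alas2*, are shown. *Hba-a1*, *Hbb-bt* and *Alas2* are markers of these cells, and *Hbb-bs*, which is not, gave the most globin counts. RefSeq start regions of GRCm38.p6 were held for 8 of the 9 genes sought, which were the 8 marker genes and *Hbb-bs*, with *Car2* as the exception. The 120 bases before the start are given 5′ to 3′ on the strand of the gene, for *Hba-a1* at chr11:32283552-32283671 on the plus strand, *Hbb-bs* at chr7:103827929-103828048 on the minus strand, *Hbb-bt* at chr7:103813924-103814043 on the minus strand and *Alas2* at chrX:150547297-150547416 on the plus strand.
Hba-a1: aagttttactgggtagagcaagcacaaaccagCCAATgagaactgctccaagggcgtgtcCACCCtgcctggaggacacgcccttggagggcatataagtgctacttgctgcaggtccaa
Hbb-bs: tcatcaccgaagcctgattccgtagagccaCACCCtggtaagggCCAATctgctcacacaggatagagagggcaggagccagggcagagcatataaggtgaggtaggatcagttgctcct
Hbb-bt: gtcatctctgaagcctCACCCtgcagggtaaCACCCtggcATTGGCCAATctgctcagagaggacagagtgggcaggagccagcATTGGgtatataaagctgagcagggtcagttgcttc
Alas2: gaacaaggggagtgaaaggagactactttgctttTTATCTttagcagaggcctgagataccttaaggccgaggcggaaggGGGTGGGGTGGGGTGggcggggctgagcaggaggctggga
Capitals mark CACCC, a motif bound by KLF1, CCAAT, and AGATAA, a motif bound by GATA factors, on either strand. The 3 globin genes each held CACCC and CCAAT, which occur together in 6.23% of the 32851 start regions of this length. *Alas2* held AGATAA on the other strand and 3 adjoining copies of CACCC on the other strand, and 1.07% of start regions hold both motifs. Singly, CACCC occurs in 31.7%, CCAAT in 21.3% and AGATAA in 4.36% of them. A match describes letters of the reference build, which were not read from these mice, and was not tested for binding.

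The erythroid cells held 253598 UMIs in all, between 435 and 3885 a cell with a median of 839. UMIs summed per mouse ran from 476 in H6, which had 1 cell, to 102941 in S2, and mitochondrial genes took 6.84% to 13.4% of them. No cell barcode was found in more than 1 spleen sample. Spleen S8 and muscle S8 shared 36 barcodes, 1 of them that of a spleen erythroid cell, and spleen H6 and muscle S1 shared 2, neither of them erythroid. Values per mouse are counts-per-million (CPM) values of the mouse's erythroid UMIs unless another total is named. The mice with fewer than 5 erythroid cells, H6 with 1 and S3 with 3, were left out of comparisons of genes, so that 3 healthy mice (H3, H4, H7) and 5 CIA mice (S1, S2, S5, S6, S8) remained.

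Erythroid cells were most frequent in S1 and S2, and the CIA and healthy mice overlapped. In healthy mice they made up 7.27% of annotated spleen cells in H3 (12 of 165 cells), 6.50% in H4 (32 of 492), 0.752% in H6 (1 of 133) and 2.76% in H7 (6 of 217). In CIA mice the share was lowest in S3 at 1.95% (3 of 154), had a median of 4.90% and was highest in S1 at 15.4% (69 of 447), with S2 at 10.9% (99 of 911) and S5, S6 and S8 between 4.70% and 5.01%. S1 and S2 were above every healthy mouse, the other 4 CIA mice lay inside the healthy range, and S1 and S2 together gave 80.0% of the 210 erythroid cells of CIA mice. The mean was 7.12% ± 5.01 (SD, n = 6) in CIA mice and 4.32% ± 3.09 (SD, n = 4) in healthy mice, a difference of 2.80 percentage points that was within the spread between mice (two-sided exact permutation test, p = 0.390, smallest possible p = 0.00952). Within the samples marked CIA the means were 4.83% ± 0.164 (SD, n = 3) and 3.34% ± 2.92 (SD, n = 3), with an exact permutation p of 0.4, where 3 against 3 mice cannot go below 0.100. The mark 2CIA holds 1 healthy mouse and gives no test. Red cell lysis and freezing were applied to every spleen, and their part in the share was not tested.

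**Figure D1:**
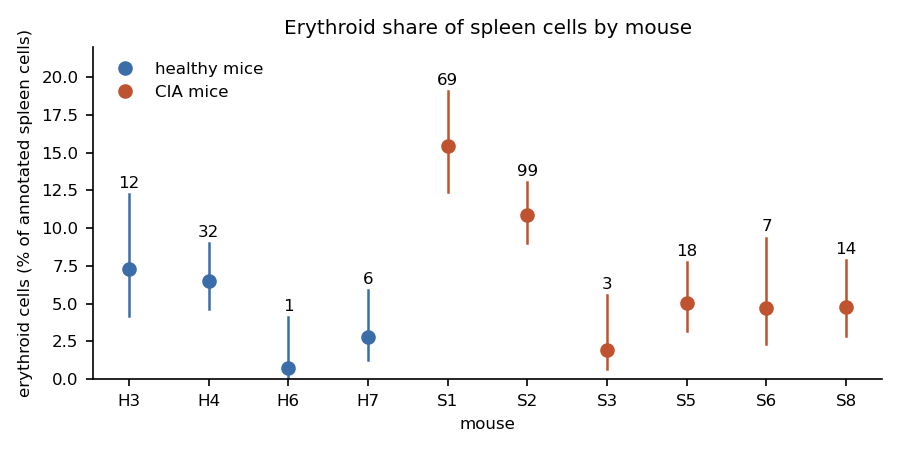
Erythroid cells as a percentage of annotated spleen cells (vertical axis) in each mouse (horizontal axis), healthy in blue and CIA in red, with 95% Wilson intervals that cover counting error only and the number of erythroid cells above each interval. S1 at 15.4% and S2 at 10.9% stand above the healthy mice, whose highest value is 7.27%, and the other CIA mice lie between 1.95% and 5.01%.

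Most cells held UMIs of the erythroid markers of their label. UMIs of *Hba-a1*, an alpha globin gene, were found in 88.1% of the 261 cells, of *Car2*, carbonic anhydrase 2, in 83.9%, of *Hbb-bt*, an adult beta globin gene, in 82.8%, of *Tfrc*, the transferrin receptor, in 29.5% and of *Alas2*, the first enzyme of erythroid haem synthesis, in 27.6%. At least 2 of these 5 markers were found in 228 cells (87.4%). Since free RNA can add UMIs to any barcode, the shares were read against other spleen cells after thinning each cell to 400 UMIs. On that scale *Car2* was found in 73.6% of erythroid cells (95% Wilson interval 67.9% to 78.6%) and 3.81% of B cells, *Alad* in 39.8% and 2.45%, and *Slc4a1* in 32.6% and 2.28%, with median depths of 839 UMIs in erythroid and 587.5 UMIs in B cells before thinning. *Hba-a1* was found in 86.2% of erythroid cells and in 21.2% of B cells, so that a single globin UMI did not set an erythroid cell apart. Shares were higher than in B cells in the cells labelled Dendritic cells, at 68.7% for *Hba-a1*, 15.9% for *Car2*, 5.12% for *Alad* and 7.82% for *Slc4a1*. The annotation was itself made from the genes of these cells, and these differences are a description of it.

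**Figure D2:**
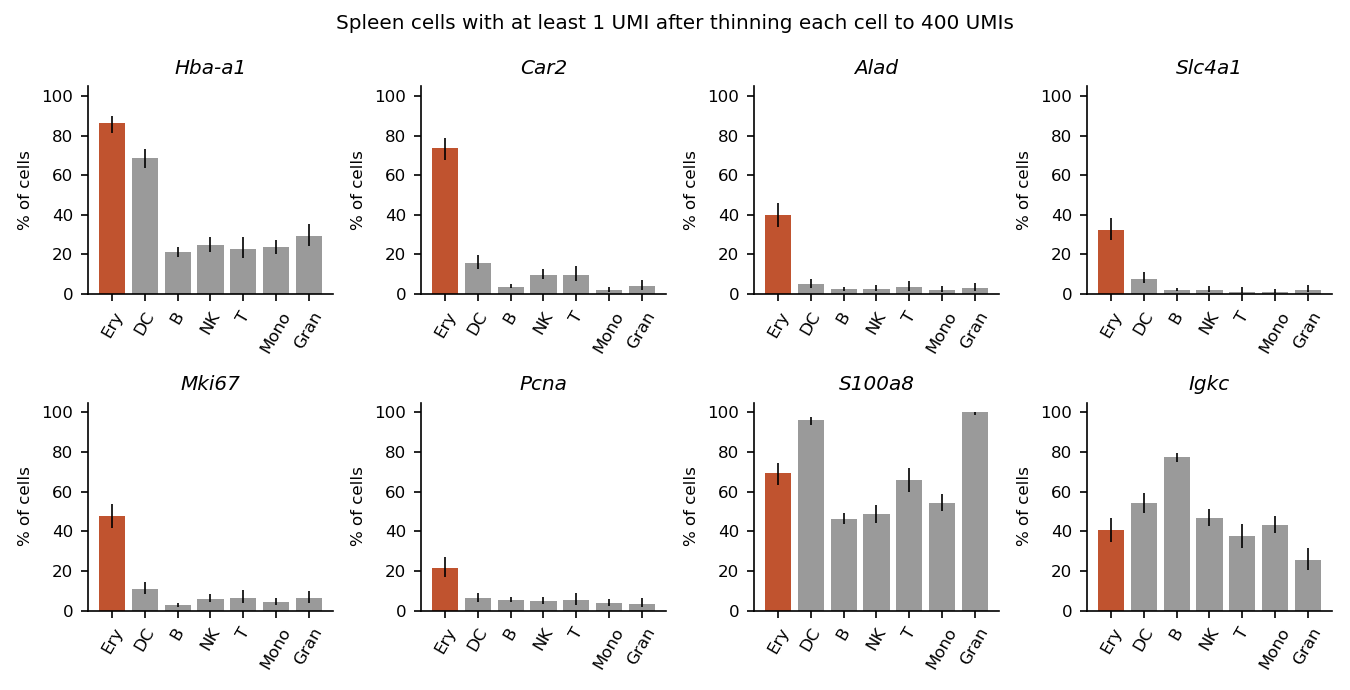
Percentage of spleen cells with at least 1 UMI of a gene (vertical axes) by annotated cell type (horizontal axes: Ery, the 261 erythroid cells, then dendritic, B, NK, T cells, monocytes and granulocytes) after thinning every cell to 400 UMIs, with 95% Wilson intervals. Erythroid cells (red) are highest for *Hba-a1*, *Car2*, *Alad*, *Slc4a1*, *Mki67* and *Pcna*, while *S100a8* and *Igkc* are found in 69.3% and 40.6% of them.

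The 33 erythroid cells with none or 1 of the 5 markers were spread unevenly, with 17 of 51 cells in healthy mice and 16 of 210 in CIA mice. Globin genes took 0.475% of their UMIs against 23.7% in the other 228 cells, and their haem synthesis genes summed to 636 CPM against 4166 CPM. They held more UMIs of B cell genes (17679 against 5717 CPM) and of plasma cell genes (4721 against 836 CPM), and more of *Mpo*, a myeloid precursor enzyme (670 against 13.4 CPM). The single cell of H6 was of this kind, with *Igkc* at 50420 CPM and no UMI of *Car2*, *Hba-a1* or *Hbb-bt*. These cells were given no other name, and values without them stand beside most of the comparisons that they move. The filter that leaves these cells out reads UMIs of *Alas2*, *Car2*, *Hba-a1*, *Hbb-bt* and *Tfrc* themselves. Values under it are therefore no independent check on those genes, other globin genes or lists that hold them.

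Globin RNA was also found outside the label. B cells, NK cells, T cells, monocytes and granulocytes of spleen held 1.49% to 2.27% globin UMIs. The 371 spleen cells labelled Dendritic cells held 11.7%, and 128 of them were above 10% globin, 95 in S2 and 23 in S1. Over all 371 of these cells *Car2* was at 564 CPM against 4657 CPM in the erythroid cells, and *S100a8*, a neutrophil calcium-binding gene, at 77890 CPM against 6857 CPM.

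The erythroid cells spanned a wide range of globin content, from cells with almost none to cells in which 1 gene family took most of the counts. Over all cells globin genes took 20.9% of UMIs, of which *Hbb-bs* gave 72.0%, *Hba-a1* 18.7% and *Hbb-bt* 8.70%. *Hbb-bh1* and *Hbb-y*, embryonic globin genes, gave 0.439% and 0.130%. Counts of *Hba-a1* and *Hba-a2*, and of *Hbb-bs* and *Hbb-bt*, are uncertain between the members of each pair, since these copies are near-identical. By mouse the median globin share of a cell was 19.3% in H3, 3.51% in H4 and 11.7% in H7, and in CIA mice 20.0% in S1, 23.1% in S2, 11.4% in S5, 13.8% in S6 and 4.91% in S8. H4 and S8 were lowest, and the groups overlapped.

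**Figure D3:**
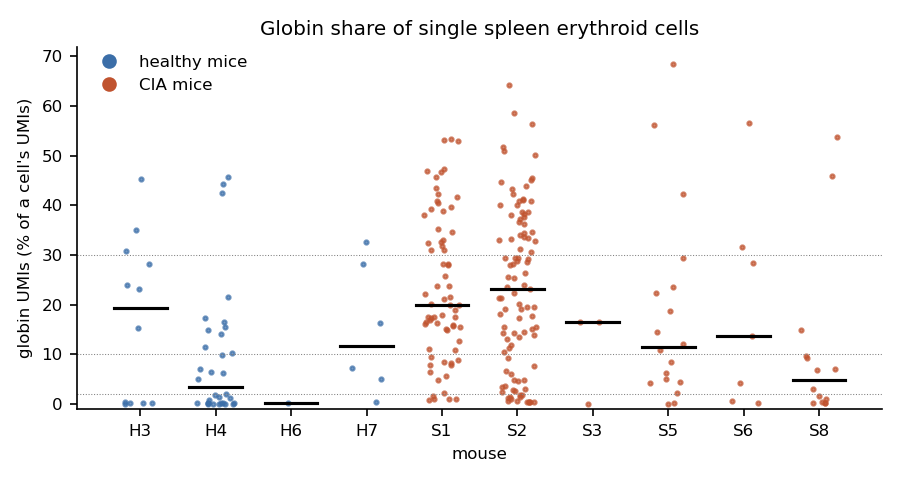
Globin UMIs as a percentage of each erythroid cell's UMIs (vertical axis) by mouse (horizontal axis), 1 point a cell, healthy in blue and CIA in red, with the median of each mouse as a bar and dotted lines at 2%, 10% and 30%. Medians run from 3.51% in H4 to 23.1% in S2 among the mice with at least 5 cells, and cells below 2% are found in every one of them.

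Cells were ordered by globin share, in bins whose edges cut a continuous range, with 20 cells within 1 point of the 2% edge, 17 within 2 points of 10% and 20 within 2 points of 30%. Cells below 2% numbered 22 in healthy mice (43.1% of 51) and 29 in CIA mice (13.8% of 210), and cells above 30% numbered 7 (13.7%) and 67 (31.9%). In H4 15 of 32 cells were below 2%, in H3 5 of 12, in H7 1 of 6 and in S8 6 of 14, against 5 of 69 in S1, 13 of 99 in S2, 2 of 18 in S5 and 2 of 7 in S6. The mice differed widely inside each group, and cells of 1 mouse are not replicates, so no test was made of these numbers.

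Along that axis UMIs are given as CPM of the UMIs outside the globins. On this scale the haem synthesis genes summed to 857 CPM in cells below 2%, 3478 at 2% to 10%, 5855 at 10% to 30% and 8033 above 30%. *Alas2* went from 0 UMIs in the lowest bin, which allows up to 3 UMIs in 48987, to 970 CPM in the highest. *Slc4a1*, the anion exchanger band 3 of late stages, stood at 102 CPM in the lowest and 3078 CPM in the highest bin. *Gpx1*, a peroxidase abundant in red cells, went from 1837 to 15370. *Car1*, an early carbonic anhydrase, had its highest value at 2% to 10% (1081) and its lowest above 30% (633), whereas *Car2* went from 1796 to 10331. *Npm1*, a nucleolar gene of progenitors, went the other way from 919 to 190, and *Myb*, a progenitor factor, gave 7 UMIs in the lowest bin, 2 at 2% to 10% and none above 10%. *Mpo* was found with 20 of its 23 UMIs below 2% globin.

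When the cells of each of the 8 mice were split at the mouse's own median globin share, the haem synthesis, committed and late erythroid lists were higher in the upper part in 8 of 8 mice, the early progenitor list in 1 of 8, and the S phase and the G2 and mitosis lists in 6 of 8. The B cell list was higher in the upper part in 4 of 8. All these sums come from the cells that were clustered, share their libraries and are read as a description.

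**Figure D4:**
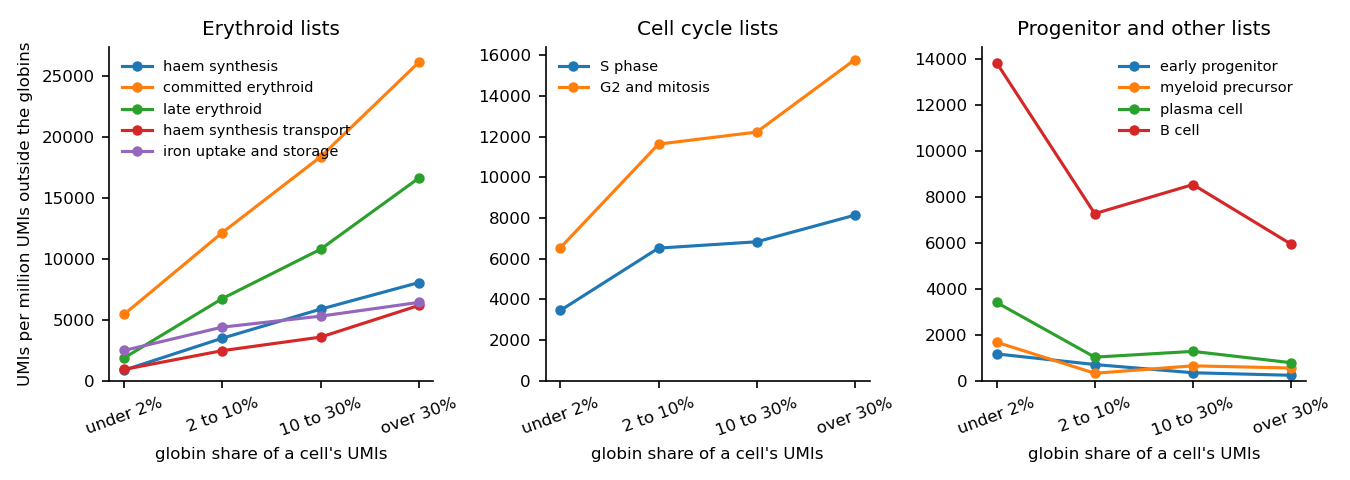
Summed UMIs of gene lists as CPM of the UMIs outside the globin genes (vertical axes) in erythroid cells of all 10 mice, binned by the globin share of a cell's UMIs (horizontal axes). Haem synthesis goes from 857 to 8033 and late erythroid genes from 1858 to 16593, S phase from 3450 to 8138, and early progenitor genes from 1164 to 232. B cell genes go from 13861 in the lowest bin to 5946 in the highest.

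For CIA against healthy mice, counts were summed per mouse and fitted in edgeR (quasi-likelihood test, adjusted p-values after Benjamini-Hochberg). Of 152 genes with enough UMIs, 0 were called at an adjusted p below 0.05 (0% of genes tested), and DESeq2 called 0 as well. At an unadjusted p below 0.05 there were 16 genes (10.5%), with 8 higher (5.26%) and 8 lower (5.26%) in CIA mice, and DESeq2 gave 18. None of the 152 genes had every CIA mouse above every healthy mouse (0%), and 11 (7.24%) had every CIA mouse below. The 3 healthy mice together held 50 cells and 49478 UMIs and the 5 CIA mice 207 cells and 201621 UMIs. Genes of lower count were not tested in this fit. With a minimum count of 3 in place of 10 there were 6 calls among 773 genes, namely *Camp*, *Isg15*, *S100a9* and *Wfdc17* higher and *Igkc* and *Jchain* lower. *Isg15* and *Wfdc17* had 0 UMIs in the 3 healthy mice. They passed that filter only through CIA mice, so their direction was in part set by the filter. The median log2 fold change of all tested genes was -0.02, and without composition factors, on plain library size, it was -0.34. The folds below are from the fit with composition factors, and none of them passed the threshold.

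The adult globin genes had higher values in 4 of the 5 CIA mice than in the 3 healthy mice, and S8 was the exception. *Hba-a1* stood at 28567 CPM in H3, 21085 in H4 and 16488 in H7, and at 42161 in S1, 48950 in S2, 37219 in S5, 47923 in S6 and 16476 in S8. S8 lay just below the lowest healthy mouse and the other 4 CIA mice above all of them, with a log2 fold change of 1.04 ± 0.38 (SE, n = 3 and 5, edgeR adjusted p = 0.266). *Hbb-bt* stood at 14786, 11326 and 9603 CPM in H3, H4 and H7 and at 21039, 19914, 22415, 24989 and 9248 in S1, S2, S5, S6 and S8, in the same arrangement, with a log2 fold change of 0.95 ± 0.37 (SE, edgeR adjusted p = 0.295). *Hbb-bs* was 100111 ± 27616 CPM (SD, n = 3) in healthy and 151274 ± 41969 CPM (SD, n = 5) in CIA mice, with a log2 fold change of 0.82 ± 0.36 (SE, edgeR adjusted p = 0.407). *Hbb-bh1* had a log2 fold change of 1.58 ± 1.00 (SE, adjusted p = 0.577) and ranged from 270 CPM in H4 to 5249 CPM in S6. That fold was 0.86 without S6, 0.84 without H4 and 2.55 in the samples marked CIA alone, and 1.07 ± 1.04 (SE) with cells of at least 2 markers. Of the 10 globin genes listed, 8 were in the count table and 4 were tested. All 4 had a positive fold, against 49.3% of all tested genes, and their median log2 fold change was 0.99. At an unadjusted edgeR p below 0.05, 3 of them were higher, against 5.26% of all tested genes. The 4 are counted in the same cells and include near-identical copies, so they are not independent signs. On plain library size the folds were 0.69 for *Hba-a1*, 0.60 for *Hbb-bt* and 0.49 for *Hbb-bs*. Among cells with at least 2 markers the folds were 0.52 for *Hba-a1*, 0.45 for *Hbb-bt* and 0.30 for *Hbb-bs*, with unadjusted edgeR p-values of 0.209, 0.266 and 0.411. Those cells were chosen in part by UMIs of *Hba-a1* and *Hbb-bt*, so that the filter itself acts on these folds. Within the samples marked CIA (H4 and H7 against S5, S6 and S8) the folds of *Hba-a1*, *Hbb-bt* and *Hbb-bs* were 1.16, 1.15 and 1.00.

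**Figure D5:**
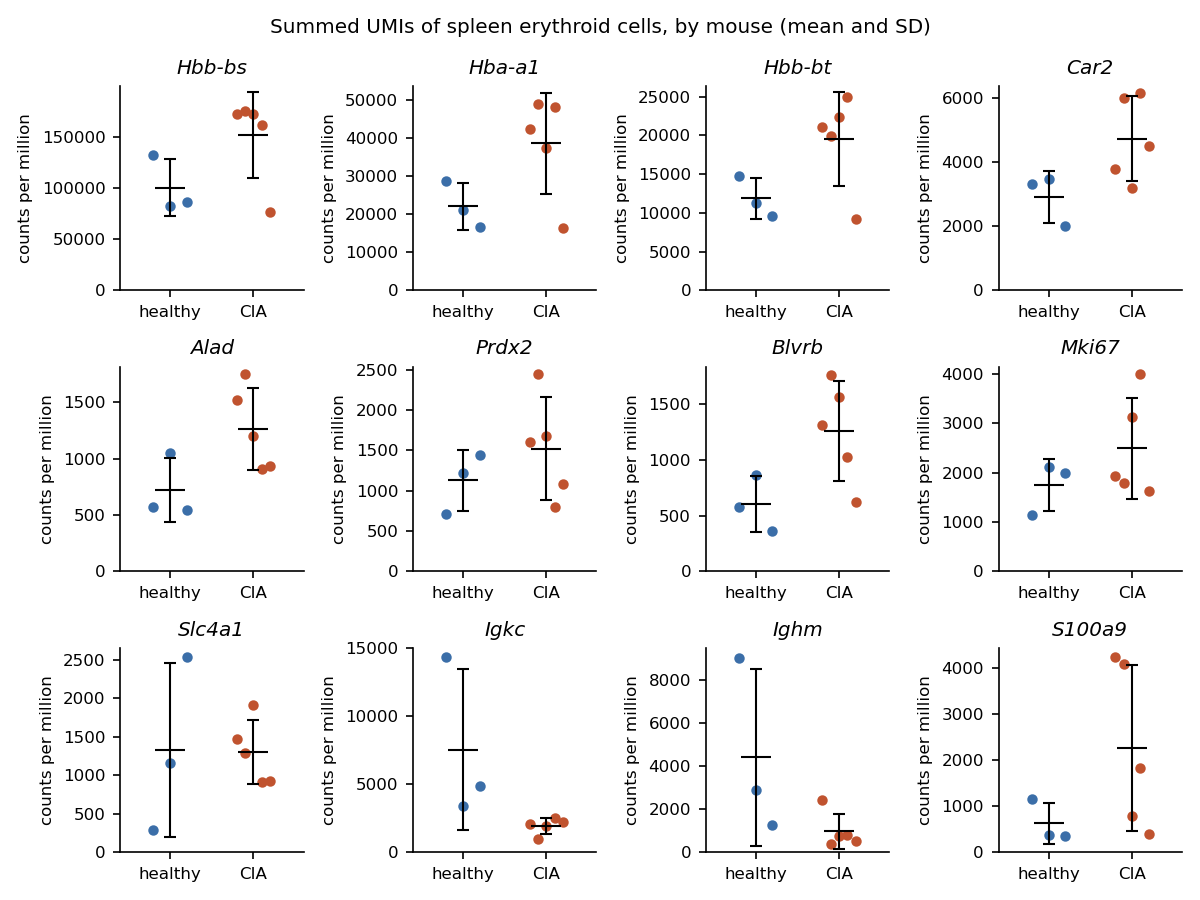
Summed UMIs of spleen erythroid cells in CPM (vertical axes, from 0) in the 3 healthy and 5 CIA mice with at least 5 cells, 1 point a mouse, with mean and SD. For *Hba-a1*, *Hbb-bt* and *Hbb-bs* 4 CIA mice lie above all healthy mice and S8 below them, while for *Igkc* every CIA mouse (at most 2510) lies below every healthy mouse (at least 3406).

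Haem synthesis genes summed to 861 CPM in H3, 3244 in H4 and 1812 in H7, and in CIA mice to 4042 in S1, 4478 in S2, 2577 in S5, 3081 in S6 and 2642 in S8. The means were 1972 ± 1199 (SD, n = 3) and 3364 ± 855 (SD, n = 5), and H4 lay inside the CIA range. With cells of at least 2 markers they were 2881 ± 1528 (SD, n = 3) and 3559 ± 841 (SD, n = 5). Of the 9 genes 2 had enough UMIs to be tested, and neither was called. *Alad*, which joins 2 molecules of aminolevulinic acid, stood at 574, 1054 and 544 CPM in H3, H4 and H7 and at 1524, 1749, 1199, 913 and 933 in S1, S2, S5, S6 and S8. S6 and S8 were below H4 and the other CIA mice above all healthy mice, with a log2 fold change of 0.91 ± 0.32 (SE, edgeR adjusted p = 0.266), of 0.40 ± 0.31 among cells with at least 2 markers and of 0.45 ± 0.46 in the samples marked CIA alone. *Alas2* was seen with 100 UMIs in all, at 0, 243 and 362 CPM in H3, H4 and H7 and between 228 CPM (S6) and 563 CPM (S1) in the CIA mice, so that the groups overlapped. The 0 of H3 allows up to 431 CPM. *Fech*, which puts iron into the ring, had 404 ± 369 CPM (SD, n = 3) and 382 ± 172 CPM (SD, n = 5). *Cpox*, a later enzyme of the pathway, gave 62 UMIs and ran from 0 to 189 CPM in healthy and from 59.9 to 340 CPM in CIA mice.

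Iron genes showed overlapping groups. *Tfrc* stood at 144, 378 and 544 CPM in H3, H4 and H7 and at 514, 398, 240, 913 and 777 CPM in S1, S2, S5, S6 and S8, with 114 UMIs in all. *Fth1*, the heavy chain of the iron store ferritin, was the iron gene with the most UMIs (616) and the single one tested, with a log2 fold change of 0.53 ± 0.31 (SE, edgeR adjusted p = 0.525) that became 0.22 ± 0.33 with cells of at least 2 markers. Its levels were 1680 ± 541 CPM (SD, n = 3) in healthy and 2156 ± 657 CPM (SD, n = 5) in CIA mice. The list of 13 genes summed to 3116 ± 1009 CPM (SD, n = 3) and 3620 ± 484 CPM (SD, n = 5), and *Hmox1*, the haem-degrading enzyme, was at 0 in every mouse. *Ftl1*, the light chain of ferritin, gave 57 UMIs and *Pcbp1*, an iron chaperone, 49. Carriers of haem precursors and mitochondrial iron summed to 1902 ± 392 CPM (SD, n = 3) and 2713 ± 554 CPM (SD, n = 5), with 1631 to 2352 CPM in the healthy and 2158 to 3537 CPM in the CIA mice. With cells of at least 2 markers the difference of these carriers was 281 CPM in place of 812 CPM.

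Genes of committed erythroid cells summed to 7321 to 10083 CPM in the 3 healthy mice and to 10954 to 15562 CPM in the 5 CIA mice when all labelled cells were counted. With cells of at least 2 markers the groups overlapped, at 11628 to 13648 CPM and 11573 to 16451 CPM, and the difference of means was 448 CPM in place of 3757 CPM. This is a sum of 17 genes of which *Car2* gave 1181 of 3199 UMIs, and it was not tested. *Car2* stood at 3302, 3460 and 1993 CPM in H3, H4 and H7 and at 3777, 5994, 3177, 6162 and 4508 CPM in S1, S2, S5, S6 and S8. S5 was below H3 and H4, the other 4 CIA mice were above all healthy mice, and the log2 fold change was 0.89 ± 0.33 (SE, edgeR adjusted p = 0.266). *Blvrb*, biliverdin reductase B, stood at 574, 865 and 362 CPM and at 1309, 1758, 1558, 1027 and 622 CPM in the same mice, with S8 below H4, and had an unadjusted p of 0.00887 at a log2 fold change of 1.14 ± 0.37 (SE, edgeR adjusted p = 0.266). *Prdx2*, a red cell peroxiredoxin, had a log2 fold change of 0.70 ± 0.36 (SE, edgeR adjusted p = 0.515), and *Hemgn*, a nuclear regulator of erythroid growth, of 0.19 ± 0.35 (SE, edgeR adjusted p = 0.909), with a sign that turned in 2 alternatives. With cells of at least 2 markers the folds of *Car2*, *Blvrb* and *Prdx2* were 0.40 ± 0.36, 0.63 ± 0.38 and 0.18 ± 0.34, and *Prdx2* was also at 0.18 in the samples marked CIA alone.

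Late erythroid genes summed to 3589, 6028 and 8697 CPM in H3, H4 and H7 and to 7919, 7412, 9110, 10155 and 5596 CPM in S1, S2, S5, S6 and S8, so that the groups overlapped. With cells of at least 2 markers the difference of means was -249 CPM in place of 1934 CPM. *Slc4a1* was 1329 ± 1134 CPM (SD, n = 3) in healthy and 1306 ± 417 CPM (SD, n = 5) in CIA mice. Its log2 fold change of 0.31 ± 0.48 (SE, edgeR adjusted p = 0.909) was below its error and turned in sign with the cells or factors used. *Cd24a*, a surface glycoprotein of maturing cells, had a log2 fold change of 0.76 ± 0.37 (SE, edgeR adjusted p = 0.491), and of 0.48 ± 0.37 with cells of at least 2 markers. Of 24 late genes measured, 4 were tested and none was called.

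Erythroid transcription factors and the early and erythropoietin-driven genes were near the floor of these libraries. The 12 factors together gave 341 UMIs, at 1173 ± 397 CPM (SD, n = 3) in healthy and 1483 ± 368 CPM (SD, n = 5) in CIA mice. *Klf1*, which switches on adult beta globin, gave 47 UMIs, *Tal1* and *Lmo2*, partners in one factor complex, 42 each, *Klf3*, a repressor of the same family as KLF1, 38, and *Gata1* 23. *Klf1* was found in 5.36% of erythroid cells thinned to 400 UMIs and in 0.169% of B cells. *Kit*, the stem cell factor receptor, gave 3 UMIs, and *Gata2* and *Cd34* gave none. *Npm1* gave 87 of the 116 UMIs of the early list, *Myc* 15 and *Myb* 9, and the list summed to 660 ± 304 CPM (SD, n = 3) in healthy and 400 ± 122 CPM (SD, n = 5) in CIA mice, with overlap, and to 246 ± 27.0 and 330 ± 191 CPM with cells of at least 2 markers. Targets of erythropoietin, the hormone of red cell output, gave 68 UMIs, 43 of *Pim1*, 11 of *Bcl2l1*, 5 of *Socs3* and 3 of *Socs1*, with *Cish* and *Gdf15* at 0 and *Erfe* at 1. None of these 3 lists had a gene with enough UMIs to be tested.

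Genes of proliferation were found in the erythroid cells of both groups. After thinning to 400 UMIs, *Mki67*, a protein of dividing nuclei, was found in 47.9% of erythroid cells (95% Wilson interval 41.9% to 53.9%), against 2.71% of B cells, 6.38% of T cells and 11.1% of cells labelled Dendritic cells. *Pcna*, the sliding clamp of DNA replication, was found in 21.5% of them and in 5.33% of B cells. *Mki67* stood at 1148, 2109 and 1993 CPM in H3, H4 and H7 and at 1938, 1787, 3117, 3994 and 1632 CPM in S1, S2, S5, S6 and S8. S5 and S6 were above all healthy mice and the other 3 CIA mice within their range, with a log2 fold change of 0.70 ± 0.42 (SE, edgeR adjusted p = 0.525) that was 0.41 without S6. *Hmgb2*, a chromatin protein, and *Top2a*, topoisomerase II, had log2 fold changes of -0.36 ± 0.31 and -0.05 ± 0.40 (SE, edgeR adjusted p = 0.701 and 0.983), both with a sign that turned in at least 1 alternative. *Cenpf*, a kinetochore protein, gave 100 UMIs and was not tested.

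The 24 genes of G2 and mitosis summed to 9522 ± 1940 CPM (SD, n = 3) in healthy and 9961 ± 1866 CPM (SD, n = 5) in CIA mice. Those of S phase summed to 3918 ± 1375 CPM (SD, n = 3) and 4382 ± 1342 CPM (SD, n = 5), and of them *Pcna* gave 145 UMIs, *Rrm2*, a subunit of ribonucleotide reductase, 135, *Lig1*, a DNA ligase, 106 and *Mcm7*, of the replicative helicase, 75. For both lists the difference of means was smaller than either group's SD, and with cells of at least 2 markers it was 242 CPM for G2 and mitosis and -85.2 CPM for S phase. Chromatin and tubulin genes that go with proliferation, 12 in number, summed to 5349 ± 1543 CPM (SD, n = 3) and 4477 ± 841 CPM (SD, n = 5), and to 3781 ± 818 and 4110 ± 645 CPM with cells of at least 2 markers. Over the 3 tested genes of G2 and mitosis the median log2 fold change was -0.05, next to -0.02 for all tested genes.

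RNA of other cell types moved with the groups in these sums. *Igkc*, the kappa light chain, stood at 14355, 3406 and 4892 CPM in H3, H4 and H7 and at 2054, 1001, 1978, 2510 and 2254 CPM in S1, S2, S5, S6 and S8. Every CIA mouse was below every healthy mouse, with a log2 fold change of -1.73 ± 0.48 (SE, edgeR adjusted p = 0.266), an unadjusted p of 0.00391, and it was called on plain library size. The fold was -0.81 without H3 and -0.57 ± 0.44 (SE, edgeR adjusted p = 0.756) in the samples marked CIA alone. Other spleen cells of these mice also differed in *Igkc*. Monocytes held 47817 to 57259 CPM in H3, H4 and H7 and 11574 to 36745 CPM in the CIA mice compared. NK cells held 3479 to 5268 and 1604 to 2352 CPM, and B cells 6055 to 10551 and 3311 to 5577 CPM. H6 and S3 had been left out for few erythroid cells. They held 28266 and 5520 CPM in monocytes, 927 and 2419 CPM in NK cells, and 3814 and 12380 CPM in B cells. With H6 and S3 added the groups overlapped in each of these cell types. In T cells, granulocytes and cells labelled Dendritic cells the groups overlapped. *Ighm*, the IgM heavy chain, and *Iglc2*, a lambda light chain, had log2 fold changes of -1.83 ± 0.66 and -1.18 ± 0.47 (SE, edgeR adjusted p = 0.266 and 0.331). That of *Ighm* was -0.82 without H3, and that of *Iglc2* was -0.63 ± 0.55 in the samples marked CIA alone. The B cell list summed to 26845, 11570 and 15039 CPM in the healthy mice and to between 3682 and 7539 CPM in the CIA mice, with all 12 members seen, and the defining receptor gene *Cd79a* at 22 UMIs. The plasma cell list summed to 1631 to 5742 CPM and 767 to 1255 CPM. Among cells with at least 2 markers the folds of *Igkc*, *Ighm* and *Iglc2* were -1.25 ± 0.59, -0.86 ± 0.83 and -1.22 ± 0.61, the B cell list overlapped at 7524 to 17651 CPM in healthy and 3173 to 8831 CPM in CIA mice, and the part of these genes in the erythroid differences was not tested.

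Among the mice compared, *S100a8* and *S100a9* were highest in S1 and S2, which had a score of 8 and the mark 2CIA. Score and experiment cannot be told apart here. H3, healthy and also marked 2CIA, held more *S100a8* than S5, S6 and S8. *S100a8* stood at 4450, 351 and 1812 CPM in H3, H4 and H7 and at 11199, 8898, 1978, 3081 and 1243 CPM in S1, S2, S5, S6 and S8, and *S100a9*, its partner, had a log2 fold change of 2.27 ± 0.79 (SE, edgeR adjusted p = 0.266) beside 1.6 ± 0.86 for *S100a8* (SE, edgeR adjusted p = 0.515). The fold of *S100a8* was 2.96 without H3 and 0.97 without H4. With cells of at least 2 markers the folds were 1.76 ± 0.85 for *S100a9* and 1.14 ± 0.95 for *S100a8* (SE). The 3 erythroid cells of S3, also with a score of 8 and the mark 2CIA, held *S100a8* at 8403 CPM, *S100a9* at 4449 CPM and the granulocyte list at 14830 CPM. B cells of the same libraries held *S100a8* at 7824 CPM in S1, 6394 CPM in S2 and 16458 CPM in the 24 B cells of S3, and at 632 to 2181 CPM in H3, H4, H7, S5, S6 and S8. The granulocyte list gave 2757 UMIs from 9 of 10 members, at 784 to 5599 CPM in healthy and 1632 to 16914 CPM in CIA mice. With cells of at least 2 markers it ran from 1096 to 9179 CPM and from 1650 to 16958 CPM. *Isg15*, an interferon-induced ubiquitin-like protein, gave 0 UMIs in all 3 healthy mice and 596, 418, 180, 342 and 0 CPM in S1, S2, S5, S6 and S8. The 0 of *Isg15* allows up to 431 CPM in H3, 81.1 CPM in H4 and 544 CPM in H7. With no filter on low counts the edgeR adjusted p of *Isg15* was 0.353. The bound that follows pools the UMIs of each group and carries no spread between mice. Against a floor of 3 UMIs in the 49478 UMIs of the healthy group, the summed CIA level of 422 CPM was at least 6.95-fold higher. H4 held 36993 of those UMIs, and without it the bound was at least 1.75-fold, an alternative chosen after seeing the data. *Ifi27l2a*, also induced by interferon, ran from 108 to 362 CPM in healthy and from 0 to 480 CPM in CIA mice, and the interferon list from 514 to 1450 CPM and from 933 to 2833 CPM. With cells of at least 2 markers that list ran from 0 to 1384 and from 970 to 2863 CPM. In monocytes of the same mice it ran from 1474 to 1919 and from 4484 to 7253 CPM. In B cells it ran from 783 to 1282 and from 1770 to 2931 CPM, and in NK cells from 1028 to 1284 and from 1630 to 4192 CPM. In cells labelled Dendritic cells it ran from 657 to 1550 and from 2915 to 4867 CPM. S3, left out for few erythroid cells, was inside the healthy range in B cells (1165 CPM) and cells labelled Dendritic cells (1501 CPM). In monocytes (4814 CPM) and NK cells (2177 CPM) S3 was above the healthy mice. In T cells and granulocytes the groups overlapped.

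Markers of further cell types were sparse. The most abundant were *Srgn* (115 UMIs) and *Mpo* (23) for myeloid precursors, *Lyz2* (80) and *Ctss* (38) for monocytes and macrophages, *Cst3* (65) and *Irf8* (10) for dendritic cells, *Trbc2* (24) and *Il7r* (14) for T cells, *Ccl5* (20) and *Gzma* (9) for NK cells, *Gp9* (7) and *Cd9* (4) for megakaryocytes and platelets. All 7 genes of mast cells and basophils were at 0, as were *C1qa*, *Cd5l* and *Adgre1* of macrophages, which can hold engulfed red cells. *Jchain*, which joins antibody units, gave 122 UMIs, 13 of them in the single cell of H6.

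The erythroid cells of muscle, a tissue prepared by a separate protocol, were too few for a comparison by mouse, with 31 cells in 6 mice, of which 13 were from healthy and 18 from CIA mice. They held 28.9% globin UMIs against 20.9% in spleen, *Car2* at 2775 against 4657 CPM, *Alas2* at 577 against 394 CPM and *Mki67* at 1550 against 2003 CPM. These values are set side by side with no test.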

How the data were processed

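Count values are whole-number UMI counts per gene and cell, deposited by the authors as 1 table of 34586 genes and 13240 cells. Per the labels and the study's methods, reads were processed with bcl2fastq, Picard, Drop-seq tools and STAR, and cells were filtered on reads, transcripts, genes and mitochondrial share. The study's methods name GRCm38, whereas the submitters' processing notes list mm9 and GRCh38. Cell types are the authors' deposited annotation. The authors removed cells with very high transcript counts as possible duplicates, and no doublet caller was run. Columns of 4654 cells of joint, lung and skin were not used.

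UMIs were summed over erythroid cells per mouse. Mice with at least 5 cells entered edgeR 4.0.16 (quasi-likelihood test, TMM factors, default filterByExpr with a minimum count of 10, Benjamini-Hochberg threshold 0.05, disease as the only term), with DESeq2 1.42.0 as an alternative. Healthy and CIA animals are separate mice. Erythroid shares were compared with exact permutation tests. Intervals cover counting error only. Shares of cells with a UMI were taken after 1 random thinning to 400 UMIs, and 0 cells were too shallow. The edgeR fit was run on simulated data with changes of known size. Its recovery at the depth of these mice is not reported here, so that run does not measure what the fit could miss. Figures were drawn with matplotlib 3.10.9.

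Genes named are the study's 8 erythrocyte markers, the 4 genes with the most UMIs in each of 10 erythroid and cell cycle lists and the 2 with the most in each list of other cells or interferon response, besides a few members named for their role in a list after their values were seen. A few genes that the rule names are not reported here. Members and lists were chosen with earlier results of these data known.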

Additional observations from a re-analysis of the deposited data

Results flagged for a closer look

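Of 39 sets of values checked for a mouse far from the others of its group, 5 held one, where chance gives about 1 in 20. The sets are not independent, since *Hbb-bs* alone gave 72.0% of globin UMIs, so no excess over chance is read from that number. Mouse S8 was low in the globin sum, at 103287 CPM against 234942 to 244004 CPM in the other 4 CIA mice, and in *Hbb-bs*, at 76786 CPM against 161000 to 174585 CPM. Mouse S2 was high in the committed erythroid sum, at 15562 CPM against 10954 to 11658 CPM. Mouse S6 was high in *Top2a*, at 1597 CPM against 933 to 1027 CPM. Mouse S1 was high in *Ighm*, at 2419 CPM against 398 to 799 CPM.

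Among 396 spleen cells to which the annotation gives no cell type, 33 held UMIs of at least 3 of the 5 erythroid markers (8.33%), and 34 had over 10% globin. That share lay within the 4.57% of B cells to 9.36% of T cells found over B cells, NK cells, T cells, monocytes and granulocytes, and below the 32.6% of cells labelled Dendritic cells and the 79.3% of erythroid cells. They entered no comparison.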

How the results depend on the processing

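The share of erythroid cells kept its direction and missed the threshold in every alternative run, with a difference of 2.60 points over all deposited cells, 3.67 points for cells with at least 2 markers, 1.49 points in the samples marked CIA, 1.14 to 3.84 points when each mouse was left out, and a log2 fold change of 0.71 (adjusted p = 0.558) in edgeR on cell numbers. The count of called genes was 0 except on plain library size (1, *Igkc*), with no filter on low counts (1, *Igkv11-125*) and with a minimum count of 3 (6 of 773 genes, with *Camp*, *Isg15*, *S100a9* and *Wfdc17* higher and *Igkc* and *Jchain* lower). *Isg15* and *Wfdc17*, at 0 UMIs in the healthy mice compared, passed the filter at a minimum count of 3 only through CIA mice. The 16 genes at an unadjusted p below 0.05 became 393 with no filter, 48 with a minimum count of 3 and 3 with cells of at least 2 markers. Of 20 genes with a printed fold change, 16 kept their sign in all alternatives run. *Hemgn* turned to -0.16 on plain library size and -0.31 with cells of at least 2 markers, and *Slc4a1* to -0.054 and -0.17 in the same order and to -0.098 in the samples marked CIA alone, with a range of -0.068 (without H3) to 0.88 (without H7) when each mouse was left out. *Hmgb2* turned to 0.15 with no filter. *Top2a* turned to 0.29 with no filter, 0.0048 with a minimum count of 3, 0.17 with at least 10 cells a mouse, 0.14 with at least 2 markers, 0.16 with experiment as a term, and ranged from -0.35 (without H3) to 0.31 (without H7) when each mouse was left out. The cause was not tested.

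No paired analysis was possible because the mice with at least 5 erythroid cells share no number between groups (H3, H4 and H7 against S1, S2, S5, S6 and S8), and the alternative with a replicate block was not run. The precision rests on 6 to 32 cells in each healthy mouse.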
